A study of Mus musculus with 8 samples.

Results

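Gmpr and 9 other genes that interconvert purine nucleotides were followed in mouse brown adipose tissue lacking the histone deacetylase HDAC3 in fat cells. The genes were Gmpr, Gmpr2, Impdh1, Impdh2, Guk1, Ampd2, Ampd3, Adsl, Hprt and Aprt, found by symbol in the deposited table. All 10 were present among its 11234 genes. Gmpr was chosen on its measured fall in the same knockout and control libraries, and the other 9 were picked by their place in the pathway with those results already known. For these 10 genes the difference between genotypes is therefore given as a description, with no p-value. Where any of them is said to meet or miss the threshold of the fit over all genes, this too is description and supports no claim.

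The tissue was interscapular brown fat of male C57BL/6 mice aged 12 weeks, kept for 2 weeks at 29 °C, close to thermoneutrality, and killed at 5PM (ZT10). The 4 knockout libraries (replicates 4, 5, 19 and 20; genotype Adiponectin-Cre, HDAC3 floxed) carried floxed Hdac3 together with Cre under control of adiponectin, a gene of adipocytes in brown and white fat alike, while other cells of the depot keep the gene. The 4 control libraries (replicates 11, 12, 13 and 14; genotype HDAC3 floxed) carried the floxed gene without Cre. Total RNA was depleted of ribosomal RNA and sequenced, and expression was deposited as RPKM, a read number scaled for gene length and library size. The labels do not say that each library is a separate animal, so errors measure the spread between libraries.

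Newly made purine nucleotides pass through inosine monophosphate, IMP. IMP dehydrogenase and then GMP synthetase turn IMP into GMP, and GMP reductase, encoded by Gmpr and Gmpr2, runs the opposite way, deaminating GMP to IMP with NADPH. Adenylosuccinate synthetase and lyase make AMP from IMP, and AMP deaminase returns AMP to IMP. In brown fat, purine nucleotides including GDP and ATP bind the uncoupling protein UCP1 and hold back its proton leak, and in rats the Gmpr transcript is known to rise in brown fat on cold exposure.

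The implied library totals were 15883856 to 17986134 reads in knockout and 13619308 to 17748638 in control libraries, and 21.4% to 25.0% of reads in knockout and 17.1% to 20.1% in control libraries fell on listed genes. Levels below are RPKM divided by TMM factors, which are meant to correct for such differences in composition. How many genes were called in either direction depended on this choice of scaling, as given in the section on processing. Hdac3, the targeted gene, stood at 2.66, 3.93, 3.62 and 2.93 RPKM in knockout replicates 4, 5, 19 and 20, against 6.91, 7.68, 7.98 and 8.001 RPKM in control replicates 11, 12, 13 and 14. It averaged 3.29 ± 0.588 RPKM in knockout and 7.64 ± 0.511 RPKM in control libraries (SD, n = 4 each), and was lower in every knockout library. Ucp1, the defining gene of brown adipocytes, was at 2.02 to 8.26 RPKM in knockout and 117 to 213 RPKM in control libraries, below control in every knockout library. Of the 7 brown adipocyte markers listed, Ucp1 among them, 2 were higher, 3 lower and 2 not called, with a median log2 fold change of -0.05 and a summed level of 1004 to 1172 RPKM in knockout and 1184 to 1516 RPKM in control libraries. Markers shared by all adipocytes were abundant, with 8 of them summing to 5041 to 6274 RPKM in knockout and 2495 to 2702 RPKM in control libraries. Dissected fat is a mixture of cells, in which fewer cells of a type and less RNA per cell cannot be told apart.

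Gmpr was much lower in the knockout, while its paralogue Gmpr2 overlapped between genotypes. Gmpr stood at 3.86, 5.77, 3.12 and 4.71 RPKM in knockout replicates 4, 5, 19 and 20, against 18.7, 22.8, 18.3 and 21.9 RPKM in control replicates 11, 12, 13 and 14. Every knockout library was far below every control library. The means were 4.36 ± 1.14 RPKM in knockout and 20.4 ± 2.26 RPKM in control libraries (SD, n = 4 each), 4.68-fold lower in the knockout, and rested on 86 to 147 reads in a knockout and 396 to 584 reads in a control library. The log2 fold change on the log2(RPKM + 1) scale, which understates changes of low genes, was -2.02 ± 0.14 (SE). By fall on that scale Gmpr ranked 7 of 8764 genes tested, and it was chosen on its fall. Leaving out any 1 library kept the knockout mean between 0.191 and 0.234 of the control mean.

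Gmpr2, the other GMP reductase, stood at 2.96, 2.61, 2.15 and 2.27 RPKM in knockout replicates 4, 5, 19 and 20, against 2.72, 3.18, 3.34 and 3.17 RPKM in control replicates 11, 12, 13 and 14. The genotypes overlapped, through knockout replicate 4 and control replicate 11. Its log2 fold change was -0.23 ± 0.09 (SE). It missed the threshold with all libraries, and met it without knockout replicate 4 (-0.29) or control replicate 11 (-0.28). In the GENCODE M21 annotation 1369 of its 1993 exon bases also lie in exons of Tinf2 on the opposite strand. The strand setting of the counting, not given in the sources used here, decides how such reads were assigned, so reads of these 2 genes may not be fully separated. Tinf2 averaged 1.96 ± 0.306 RPKM in knockout and 1.87 ± 0.227 RPKM in control libraries (SD, n = 4 each). As RPKM shares, which no scaling factor can alter, Gmpr made up 63.0% ± 6.08 of the GMP reductase transcripts in knockout and 86.7% ± 1.49 in control libraries (SD, n = 4 each). Both reductases together came to 6.86 ± 1.27 RPKM in knockout and 23.5 ± 2.34 RPKM in control libraries (SD, n = 4 each).

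**Figure D1:**
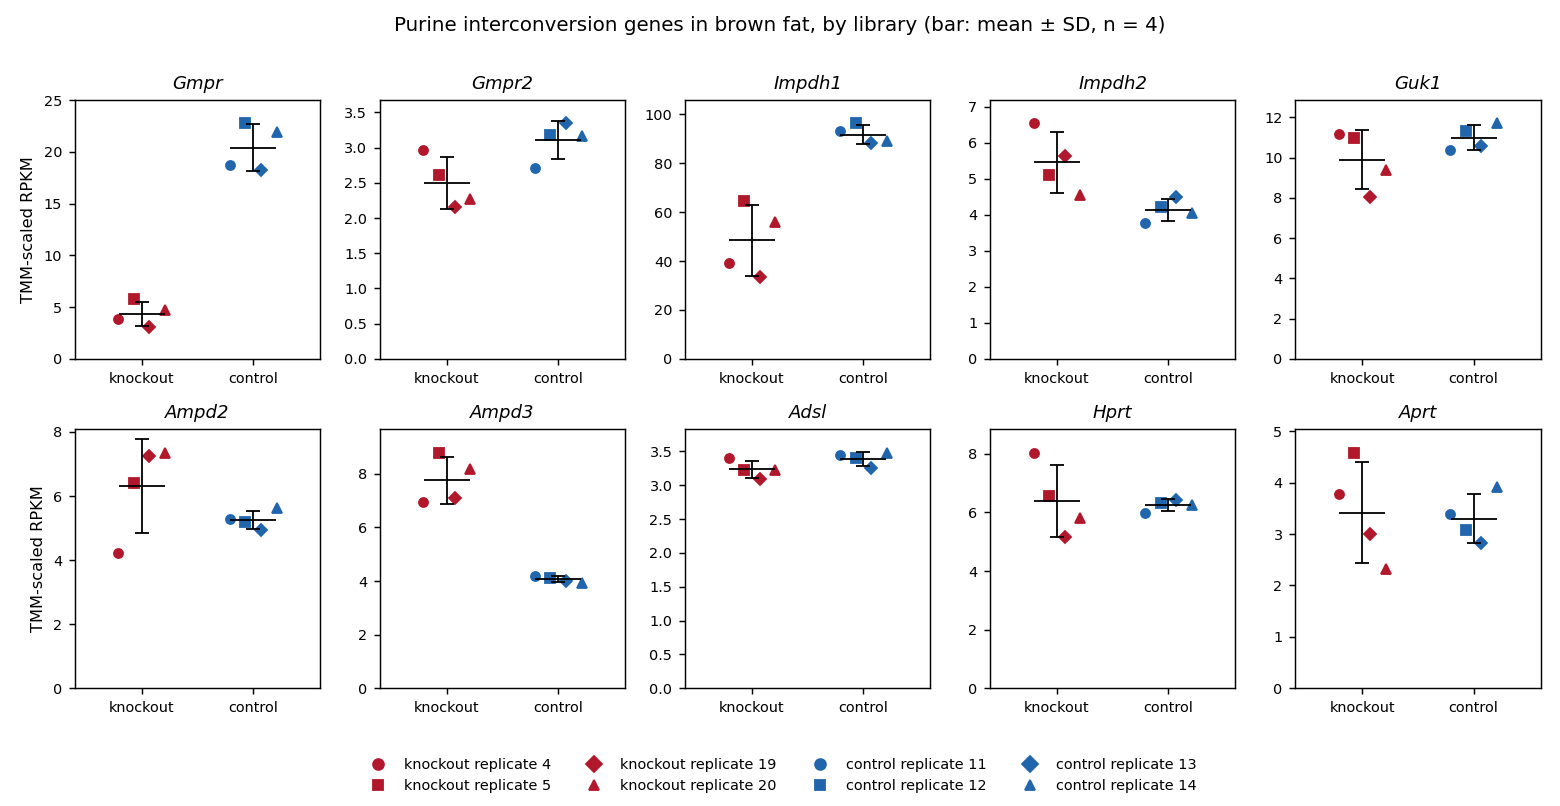
TMM-scaled RPKM (y axis, from 0) of the 10 purine interconversion genes in the 4 knockout libraries (red, left) and the 4 control libraries (blue, right); symbols are libraries, and bars are mean ± SD. Gmpr and Impdh1 lie lower and Ampd3 and Impdh2 higher in every knockout library than in every control library, and the other 6 genes overlap between genotypes.

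The pair of IMP dehydrogenases moved in opposite directions. Impdh1, the form that supplied most transcripts in this tissue, stood at 39.3, 64.6, 33.7 and 56.1 RPKM in knockout replicates 4, 5, 19 and 20, against 93.2, 96.3, 88.2 and 88.9 RPKM in control replicates 11, 12, 13 and 14. The knockout libraries were all below the control libraries and spread more widely. Their mean of 48.4 ± 14.4 RPKM was 1.89-fold lower than the control mean of 91.6 ± 3.82 RPKM (SD, n = 4 each), with a log2 fold change of -0.95 ± 0.18 (SE). Among the knockout libraries, replicate 5 was highest for both Gmpr and Impdh1, followed by replicates 20, 4 and 19 in the same order.

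Impdh2, the second IMP dehydrogenase, stood at 6.54, 5.11, 5.62 and 4.54 RPKM in knockout replicates 4, 5, 19 and 20, against 3.77, 4.21, 4.50 and 4.05 RPKM in control replicates 11, 12, 13 and 14. All knockout libraries were above all control libraries, but the lowest knockout library, replicate 20, was nearly level with the highest control library, replicate 13. The means were 5.45 ± 0.847 RPKM in knockout and 4.13 ± 0.306 RPKM in control libraries (SD, n = 4 each), a log2 fold change of 0.32 ± 0.09 (SE). The gene met the threshold in the fit across all genes, and no longer did without knockout replicate 19, control replicate 11 or control replicate 14, or when the sum over listed genes served as library size. Impdh1 made up 89.2% ± 3.97 of IMP dehydrogenase transcripts in knockout and 95.7% ± 0.407 in control libraries (SD, n = 4 each), so it remained the main form in both. Both forms together came to 53.9 ± 13.9 RPKM in knockout and 95.8 ± 3.72 RPKM in control libraries (SD, n = 4 each).

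The transcript ratio between the opposing steps restates the levels given above, among them the fall on which Gmpr was chosen. The ratio of summed GMP reductase to summed IMP dehydrogenase RPKM, computed after the values had been seen, was 0.149, 0.120, 0.134 and 0.115 in knockout replicates 4, 5, 19 and 20, against 0.221, 0.258, 0.233 and 0.270 in control replicates 11, 12, 13 and 14. The knockout libraries were all below the control libraries, at 0.130 ± 0.0151 in knockout and 0.246 ± 0.0225 in control libraries (SD, n = 4 each). This compares transcripts and says nothing of enzyme activity.

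**Figure D2:**
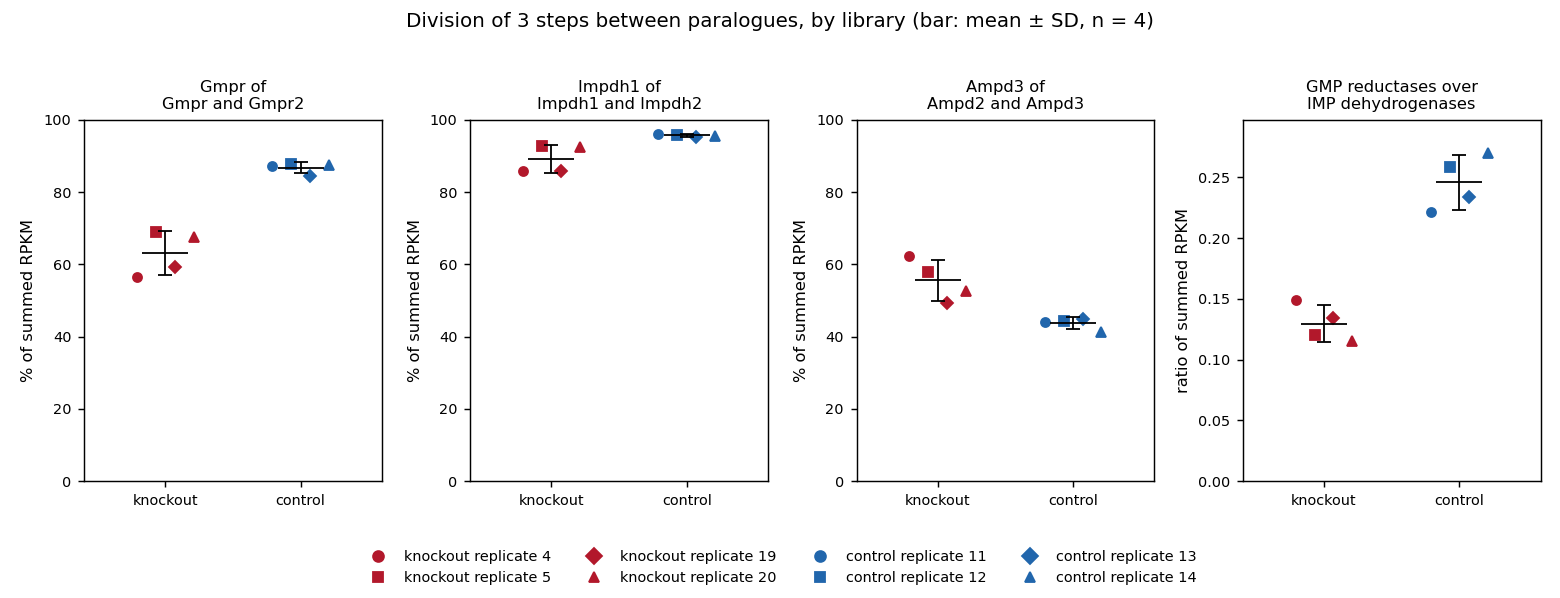
Share of RPKM carried by Gmpr, Impdh1 and Ampd3 within their paralogue pairs (first 3 panels, y axis in percent from 0 to 100) and the ratio of GMP reductase to IMP dehydrogenase RPKM (last panel, y axis from 0) in 4 knockout libraries (red, left) and 4 control libraries (blue, right), with mean ± SD. Gmpr and Impdh1 carry less and Ampd3 more of their pair in every knockout library than in any control library.

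AMP deaminase transcripts were higher in the knockout, chiefly those of Ampd3, known as the erythrocyte form of the enzyme. Ampd3 stood at 6.95, 8.79, 7.09 and 8.19 RPKM in knockout replicates 4, 5, 19 and 20, against 4.18, 4.13, 4.01 and 3.94 RPKM in control replicates 11, 12, 13 and 14. The genotypes were well apart. The means were 7.76 ± 0.883 RPKM in knockout and 4.06 ± 0.108 RPKM in control libraries (SD, n = 4 each), 1.91-fold higher in the knockout, with a log2 fold change of 0.78 ± 0.08 (SE) from 538 to 678 reads in a knockout and 239 to 291 reads in a control library. Markers of other cells were read beside this gene. The 8 listed erythroid markers summed to 175.6 to 293.9 RPKM in knockout and 200.9 to 360.9 RPKM in control libraries, and none of the 7 tested passed in either direction. The 14 macrophage markers summed to 99.8 to 118 RPKM in knockout and 48.6 to 63.2 RPKM in control libraries, with 11 of 12 tested higher, none lower and none at 0 throughout a genotype, and the part of macrophages in the rise of Ampd3 was not tested.

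Ampd2, the liver form of AMP deaminase, stood at 4.22, 6.41, 7.26 and 7.35 RPKM in knockout replicates 4, 5, 19 and 20, against 5.29, 5.19, 4.93 and 5.62 RPKM in control replicates 11, 12, 13 and 14. Knockout replicates 5, 19 and 20 lay above all control libraries, and knockout replicate 4 lay below them. The log2 fold change was 0.20 ± 0.14 (SE), and 0.36 without that replicate, a setting under which the gene passed the threshold. Ampd3 made up 55.5% ± 5.65 of these deaminase transcripts in knockout and 43.6% ± 1.64 in control libraries (SD, n = 4 each), and so was the larger part of the mean in the knockout. In that annotation Impdh2, Ampd2 and Ampd3 share 48, 434 and 196 exon bases with genes on the opposite strand, and Ampd3 shares 83 with Gm47282, a microRNA gene on the same strand, so their values carry some uncertainty. Together the pair came to 14.1 ± 2.00 RPKM in knockout and 9.32 ± 0.272 RPKM in control libraries (SD, n = 4 each).

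The remaining members overlapped between genotypes. Guk1, the guanylate kinase that phosphorylates GMP to GDP, averaged 9.88 ± 1.47 RPKM in knockout and 10.99 ± 0.618 RPKM in control libraries. Adsl, adenylosuccinate lyase, which acts both in IMP synthesis and in the step to AMP, averaged 3.24 ± 0.127 RPKM in knockout and 3.39 ± 0.102 RPKM in control libraries. Hprt, which salvages hypoxanthine and guanine, averaged 6.40 ± 1.23 RPKM in knockout and 6.24 ± 0.198 RPKM in control libraries, with knockout replicate 4 at 8.03 RPKM and replicate 19 at 5.18 RPKM on either side of all control libraries. Aprt, which salvages adenine, averaged 3.42 ± 0.976 RPKM in knockout and 3.30 ± 0.472 RPKM in control libraries, from only 34 to 65 reads in a library. Errors are SD with n = 4 each. The log2 fold changes of these 4 genes were -0.15 ± 0.10 for Guk1, -0.05 ± 0.06 for Adsl, 0.02 ± 0.11 for Hprt and 0.02 ± 0.15 for Aprt (SE), and their signs changed with the scaling of the libraries.

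Of the 10 members, all of which passed the filter of a mean of at least 1 RPKM, 2 were called higher and 2 lower (limma, adjusted p under 0.05 over 8764 genes). Over all genes tested 35.3% were called, 19.4% higher and 15.9% lower. The genotypes did not overlap in 4 of 10 members, and in 34.8% of all genes tested. In the authors' deposited table, where the log2 fold change is positive for genes higher in the knockout, the same 4 members had an FDR below 0.05, among 33.6% of all its genes. The log2 fold changes there were -2.25 for Gmpr, -0.94 for Impdh1, 0.38 for Impdh2 and 0.91 for Ampd3 in the authors' deposited table. Since the contrast was used in choosing the genes, nothing is read from these counts.

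Within a genotype the order of the members by level per kilobase also differed. In knockout libraries the order was Impdh1, Guk1, Ampd3, Hprt, Ampd2, Impdh2, Gmpr, Aprt, Adsl and Gmpr2, and only Impdh1 with Guk1 and Adsl with Gmpr2 were neighbours whose ranges over the 4 libraries did not overlap. In control libraries the order was Impdh1, Gmpr, Guk1, Hprt, Ampd2, Impdh2, Ampd3, Adsl, Aprt and Gmpr2. Only Impdh2 with Ampd3, Adsl with Aprt and Aprt with Gmpr2 were neighbours with overlapping ranges there. Gmpr thus ranked 7 of 10 in knockout and 2 of 10 in control libraries. The 10 members summed to 97.7 ± 17.5 RPKM in knockout and 152.6 ± 5.62 RPKM in control libraries (SD, n = 4 each). Impdh1 was the largest part in either genotype, at a mean of 48.4 RPKM in knockout and 91.6 RPKM in control libraries.

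The sequences just upstream of the reductases and dehydrogenases are shown because 2 of these 4 genes fell, 1 rose and Gmpr2 overlapped between genotypes. They are the 250 bases before each RefSeq start in the build GRCm38.p6, which is later than the mm9 build of the authors' notes, read 5′ to 3′ on the strand of the gene. Impdh1 has a pair of starts in that table. Capitals mark matches, on either strand, to any of 6 motifs searched: AGGTCA (the core bound by many nuclear receptors), TNAAGGTCA (the extended site of the ERR receptors, which contains that core), TGACGTCA (the cAMP response element), GGGCGG (the GC box), TATAAA and CCAAT.
Gmpr, chr13:45507194-45507443, plus strand: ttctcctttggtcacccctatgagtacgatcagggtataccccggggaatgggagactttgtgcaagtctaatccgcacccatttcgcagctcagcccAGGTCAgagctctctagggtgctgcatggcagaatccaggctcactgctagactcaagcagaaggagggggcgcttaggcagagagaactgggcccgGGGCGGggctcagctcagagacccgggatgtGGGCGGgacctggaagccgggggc
Gmpr2, chr14:55671985-55672234, plus strand: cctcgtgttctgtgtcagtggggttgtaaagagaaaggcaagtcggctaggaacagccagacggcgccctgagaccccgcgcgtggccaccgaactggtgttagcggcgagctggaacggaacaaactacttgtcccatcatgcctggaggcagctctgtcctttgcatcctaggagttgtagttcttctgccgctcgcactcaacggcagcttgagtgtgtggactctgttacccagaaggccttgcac
Impdh1, upstream start, chr6:29216365-29216614, minus strand: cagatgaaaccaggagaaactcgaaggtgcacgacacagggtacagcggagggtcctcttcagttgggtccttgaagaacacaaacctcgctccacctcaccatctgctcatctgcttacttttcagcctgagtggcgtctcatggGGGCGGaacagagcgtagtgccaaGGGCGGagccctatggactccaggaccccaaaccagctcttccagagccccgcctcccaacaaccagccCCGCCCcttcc
Impdh1, downstream start, chr6:29212298-29212547, minus strand: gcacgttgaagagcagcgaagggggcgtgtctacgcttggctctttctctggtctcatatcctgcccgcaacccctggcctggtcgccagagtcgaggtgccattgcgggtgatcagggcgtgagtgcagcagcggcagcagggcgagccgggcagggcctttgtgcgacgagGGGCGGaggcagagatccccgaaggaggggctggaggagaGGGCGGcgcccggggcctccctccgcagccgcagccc
Impdh2, chr9:108560186-108560435, plus strand: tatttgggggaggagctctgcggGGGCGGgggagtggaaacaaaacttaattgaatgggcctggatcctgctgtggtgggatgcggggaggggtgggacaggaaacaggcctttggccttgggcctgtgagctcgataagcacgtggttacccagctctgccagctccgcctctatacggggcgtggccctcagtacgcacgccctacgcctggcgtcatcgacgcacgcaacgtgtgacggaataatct

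All marked matches in these windows are GC boxes, except 1 match to AGGTCA, from base -152 to -147 before the start of Gmpr. Guk1, a member not shown here whose genotypes overlapped, also had a match to AGGTCA, from base -205 to -200 before a start. Gmpr had 2 GC boxes, Gmpr2 none, the Impdh1 windows 3 and 2, and Impdh2 1. GC boxes occurred in 32.7% of 32851 promoter windows of the same length, and AGGTCA in 4607 of them. The other motifs, TNAAGGTCA, TGACGTCA, TATAAA and CCAAT, were not in these 5 windows and occurred in 1.14%, 1.55%, 12.4% and 33.8% of all windows. GC content was 61.2% for Gmpr, 57.6% for Gmpr2, 59.2% and 69.6% for Impdh1 and 60.8% for Impdh2, with a median of 52.4% over all windows. These matches are descriptions of letters and not binding sites.

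The genes with the profile most like that of Gmpr were found by the root mean square difference between mean-centred log2(RPKM + 1) values over the 8 libraries. The nearest were Ccdc3, a secreted coiled-coil protein (0.15), Lctl, a lactase-like protein (0.17), Pm20d1, which makes N-acyl amino acids (0.18), Kng2, a kininogen (0.20), and Ak1, a cytosolic adenylate kinase (0.20). In mean RPKM, Ccdc3 and Ak1 were 4.69-fold and 4.48-fold lower in the knockout, near the 4.68-fold of Gmpr. Lctl, Kng2 and Pm20d1 were 6.46-fold, 6.29-fold and 9.80-fold lower. The log2(RPKM + 1) scale understates such falls of low genes, and Pm20d1 was at 0.398 to 0.603 RPKM in knockout libraries. Nearness on this scale is therefore not an equal fold change. Among the members the nearest was Impdh1, at 0.55. In Gmpr and in each of these 5 genes knockout replicate 5 was the highest of the knockout libraries. All 6 were lower in every knockout library than in every control library. Both traits follow largely from the choice, because the 5 genes were picked by nearness to the Gmpr profile in these same libraries.

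**Figure D3:**
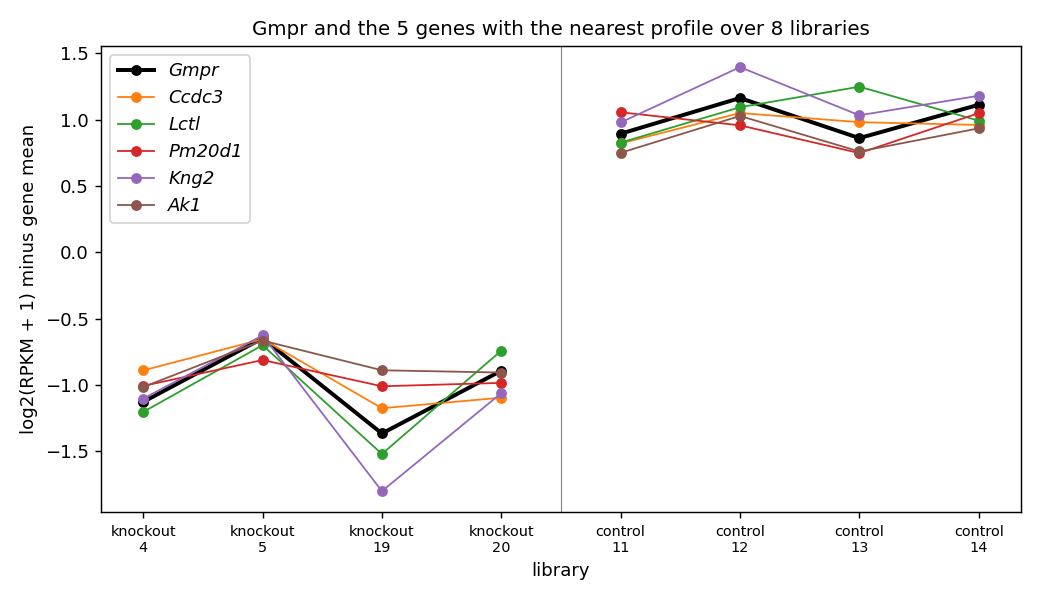
Mean-centred log2(RPKM + 1) values (y axis) of Gmpr (black) and the 5 genes with the nearest profile in the 4 knockout libraries (left of the grey line) and the 4 control libraries (right of it); points are libraries. All 6 genes are lower in every knockout library than in every control library, and knockout replicate 5 is their highest knockout library. The 5 genes were picked by nearness to the Gmpr profile, so both traits follow largely from the choice.

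Around these members, 46 other genes of purine metabolism in the table were examined, of which 37 passed the filter, and changes in both directions were found. Of the 37, 9 rose and 12 fell (limma, adjusted p under 0.05 over all genes), with a median log2 fold change of -0.02 against 0.01 over all genes tested. Over all genes tested 19.4% rose and 15.9% fell, 35.3% in all, and nothing particular to purine genes is read from these counts or from those of the lists below. With the library total alone, 13 rose and 5 fell. Those called under every alternative run were 12 of the 21: Prpsap1, Gart, Adssl1, Dguok, Pnp, Xdh, Gda, Samhd1, Nt5c, Nt5c2, Entpd6 and Ak1.

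In the new synthesis of IMP, 2 of 9 tested genes rose and 4 fell, with a median of 0.08. Prpsap1 and Prpsap2, partner proteins of the phosphoribosyl pyrophosphate synthetases, fell to 1.79 ± 0.178 and 1.92 ± 0.251 RPKM in knockout, against 3.15 ± 0.243 and 2.75 ± 0.527 RPKM in control libraries (SD, n = 4 each; limma adjusted p = 0.000206 and adjusted p = 0.0275). Gart, which catalyses 3 steps of the pathway, rose to 5.83 ± 0.178 RPKM in knockout, against 4.41 ± 0.410 RPKM in control libraries (limma adjusted p = 0.00352). Pfas, a synthase between these steps, fell by 0.24 on the log2 scale (limma adjusted p = 0.0243). Paics fell by 0.18 and Atic, the enzyme that completes IMP, rose by 0.30 on that scale (limma adjusted p = 0.0452 and adjusted p = 0.040). Both are named here after their values were seen. The genotypes overlapped for Atic and for Prpsap2. Paics lost its call without any 1 library other than control replicate 13, and Atic without knockout replicate 4, 5 or 20 or control replicate 11, 12 or 13, and also with the sum over listed genes (0.17). Prpsap2 lost it without knockout replicate 4, 5 or 20 or control replicate 12, 13 or 14, and Pfas without knockout replicate 4 or 20 or control replicate 13 or 14. Ppat, the committed step, averaged 1.12 ± 0.0507 RPKM in knockout and 1.00 ± 0.0533 RPKM in control libraries and did not pass (limma adjusted p = 0.321).

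On the branches from IMP, 2 of 3 tested genes fell and none rose, with a median of -0.21. Adssl1, the adenylosuccinate synthetase typical of muscle, fell to 3.09 ± 0.451 RPKM in knockout, against 6.64 ± 1.01 RPKM in control libraries (SD, n = 4 each; limma adjusted p = 0.000198). Of 12 skeletal muscle markers only Myl1 was listed, at 7.11 to 10.7 RPKM in knockout and 8.998 to 17.6 RPKM in control libraries, and the part of muscle in the fall of Adssl1 was not tested. Gmps, GMP synthetase, the step after IMP dehydrogenase, was 5.83 ± 0.231 RPKM in knockout and 6.93 ± 0.654 RPKM in control libraries (limma adjusted p = 0.0421), and this call was lost with the library total alone, at a log2 fold change of -0.06, and without any 1 knockout library or control replicate 12 or 14. Adss, the widely expressed synthetase, stood at 3.90 ± 0.177 RPKM in knockout and 4.35 ± 0.153 RPKM in control libraries and did not pass (limma adjusted p = 0.117).

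Among salvage genes 2 of 4 tested rose and none fell, with a median of 0.30. Pnp, purine nucleoside phosphorylase, rose to 5.79 ± 0.989 RPKM in knockout, against 3.29 ± 0.539 RPKM in control libraries, and Dguok, the mitochondrial deoxyguanosine kinase, rose to 6.21 ± 0.556 RPKM in knockout, against 4.43 ± 0.225 RPKM in control libraries (limma adjusted p = 0.00158 and adjusted p = 0.00153). Pnp shares 718 exon bases with Gm49342, an annotated gene on the same strand, and its value is uncertain. In the list of breakdown to urate, which also holds enzymes that clear unwanted nucleotides, 3 of 5 tested genes rose and none fell, with a median of 0.43. Xdh, xanthine dehydrogenase, which forms urate, rose to 16.1 ± 1.66 RPKM in knockout, against 11.2 ± 1.29 RPKM in control libraries. Gda, guanine deaminase, rose to 2.47 ± 0.620 RPKM in knockout, against 1.45 ± 0.0344 RPKM in control libraries. Samhd1, which hydrolyses deoxynucleoside triphosphates, rose to 4.26 ± 0.353 RPKM in knockout, against 2.94 ± 0.504 RPKM in control libraries. Their limma adjusted p-values were adjusted p = 0.00285, adjusted p = 0.00616 and adjusted p = 0.00597. The macrophage markers given above were higher in the same libraries. Their part in these rises, in those of Pnp and Dguok, or in any other rise given here was not tested.

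Of 10 nucleotidases and ectonucleotidases tested 2 rose and 3 fell, with a median of 0.04. Nt5c2, the cytosolic nucleotidase that prefers IMP and GMP, rose to 2.33 ± 0.234 RPKM in knockout, against 1.51 ± 0.216 RPKM in control libraries, and Entpd6 rose to 3.18 ± 0.618 RPKM in knockout, against 1.72 ± 0.292 RPKM in control libraries (limma adjusted p = 0.00308 and adjusted p = 0.00229). The deoxynucleotidase Nt5c fell to 1.87 ± 0.613 RPKM in knockout, against 3.49 ± 0.728 RPKM in control libraries (limma adjusted p = 0.00757). Its genotypes overlapped, with knockout replicate 4 at 2.78 RPKM above control replicate 14 at 2.60 RPKM. Nt5m, the mitochondrial relative of Nt5c, fell by 0.35 on the log2 scale (limma adjusted p = 0.00398). Entpd4, named after its values were seen, ranged from 10.7 to 33.1 RPKM in knockout and from 30.6 to 71.0 RPKM in control libraries (limma adjusted p = 0.021). It has a near-identical copy, Entpd4b, and its value is uncertain. Its call was lost without control replicate 11, 13 or 14. Errors are SD with n = 4 each.

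Of 6 kinases examined that connect monophosphates to triphosphates, 3 fell, with a median of -0.18. Ak1 fell to 2.03 ± 0.317 RPKM in knockout, against 9.10 ± 0.960 RPKM in control libraries (SD, n = 4 each; limma adjusted p = 2.14e-06). Ak3, which uses GTP in the mitochondrial matrix, fell by 0.22 and Nme2, a nucleoside diphosphate kinase, fell by 0.46 on the log2 scale (limma adjusted p = 0.0466 and adjusted p = 0.00451). Both calls were lost with the library total alone, and that of Ak3 also without knockout replicate 4, 19 or 20 or control replicate 11, 12 or 14, or with no filter on low values. The genotypes overlapped for Ak3. Nme2 shares 573 exon bases with Gm20390 on the same strand, and its value is uncertain. On the opposite strand Gart shares 676 exon bases with Gm15964, Nt5c2 456 with Ina, Ak3 283 with 1700018L02Rik and Paics 272 with Ppat.

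**Figure D4:**
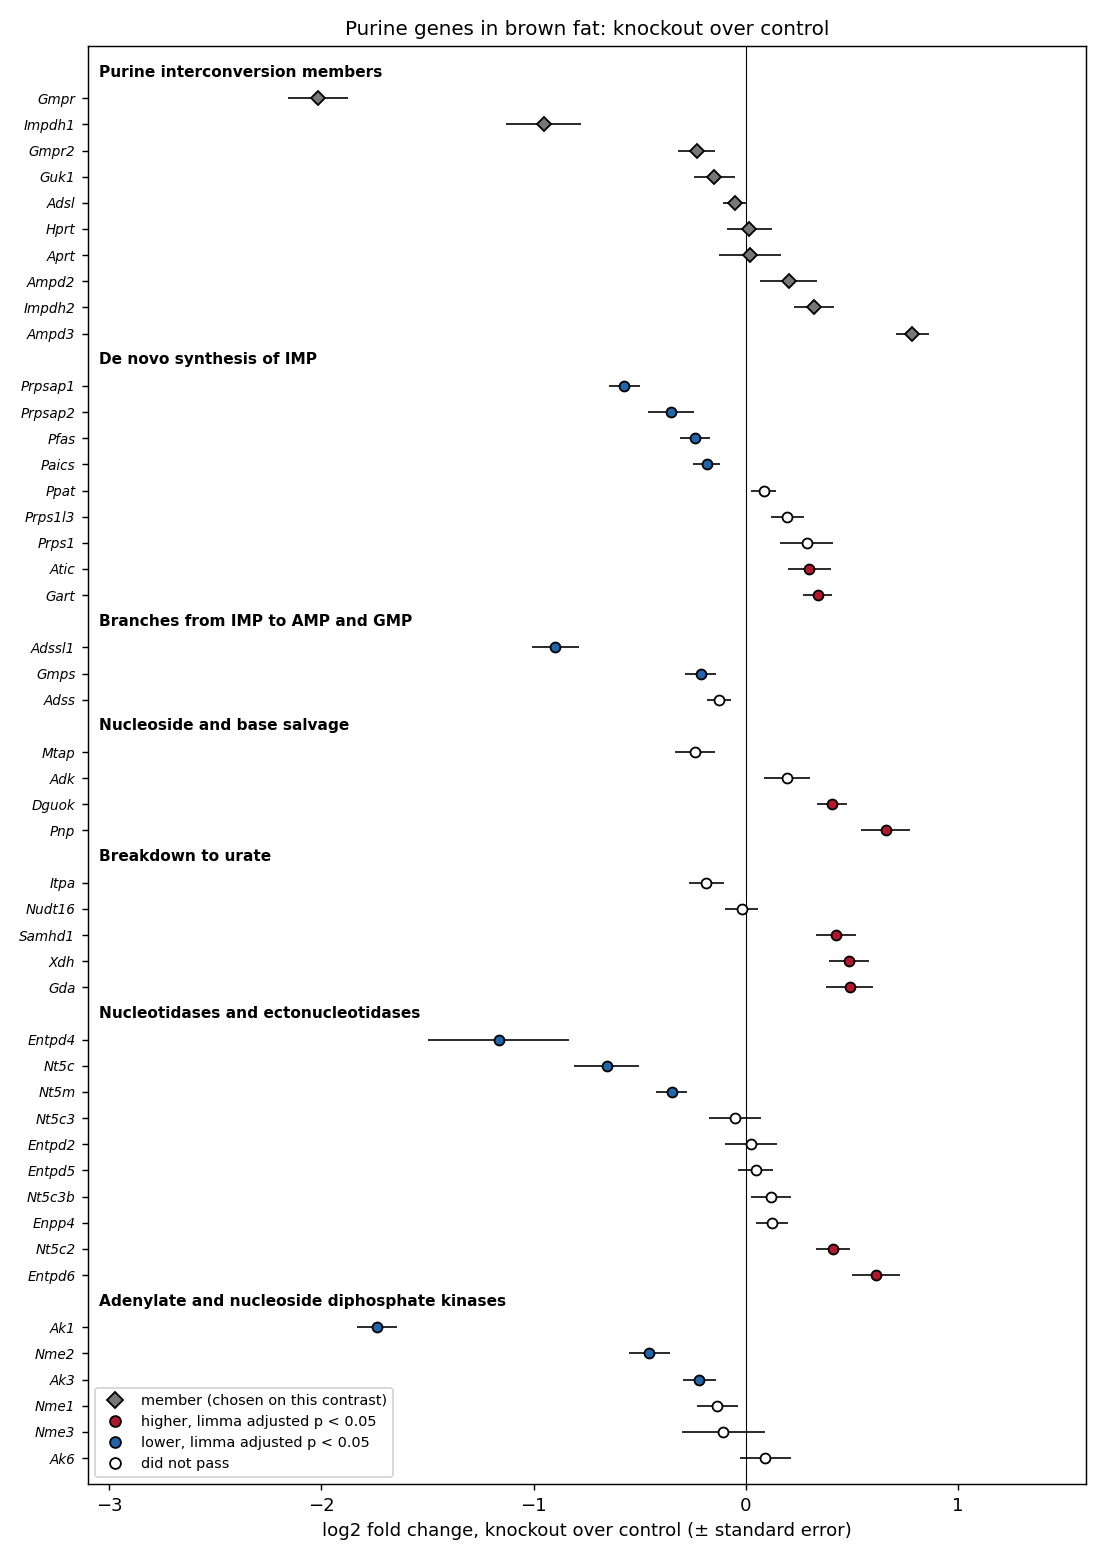
Log2 fold change of knockout over control ± standard error (x axis) for the 10 members (grey diamonds, chosen on this contrast and shown without a call) and 37 other purine genes (circles) by list; red circles rose, blue circles fell and white circles did not pass at limma adjusted p under 0.05. Gmpr at -2.02 and Ak1 at -1.74 lie furthest to the left and Ampd3 at 0.78 furthest to the right.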

How the data were processed

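RNA-seq of 8 libraries was analysed from 1 table (11234 genes). The authors' tools were TopHat2, featureCounts and edgeR, on build mm9, per the submitters' processing notes. Their versions, annotation, strand setting and filter were not given in the sources used here. The columns deposited, by their headers, are RPKM for every library and, from the authors' edgeR test, log2 fold change, mean log2 CPM, p-value and FDR.

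Whole reads were recovered for 100% of RPKM values (tolerance 0.001 reads), with 44 genes first rescaled by a factor common to their 8 values. No RPKM column lay outside the 8 libraries. The main fit was limma 3.58.1 (R 4.3.3) with a trend on log2(TMM-scaled RPKM + 1) over the 8764 genes averaging 1 RPKM or more, two-sided, with Benjamini-Hochberg adjustment at 0.05. TMM factors were computed from recovered reads (trims 0.3 and 0.05). The method was tried on simulated counts in which far fewer genes changed than were called here, so that trial does not test the choice of scaling. Python 3.11.15, pandas 2.3.3 and matplotlib 3.10.9 made tables and figures.

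Members, lists and the rule for named genes were chosen with earlier results of these data known. The rule named all members, Hdac3, Ucp1, the 5 nearest profiles to Gmpr and up to 4 called genes per purine list with the smallest adjusted p; 1 gene of these lists is not reported here and is left out of their counts. Alternatives were RLE factors, the library total alone, the sum over listed genes, a pseudocount of 0.1, no filter, limma voom on recovered reads (1772 genes called higher and 1455 lower), and leaving out each library. Sequences are from RefSeq (GRCm38.p6) and matched 10 members. Duplicates cannot be removed from the read numbers, so these may vary by more than counting error.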

Additional observations from a re-analysis of the deposited data

Results flagged for a closer look

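Among 82 groups of 4 libraries, 4 held 1 library well apart from the rest. Chance alone flags about 1 in 20 groups, or 4.1 here. In knockout replicate 19 Prpsap2 stood at 2.29 RPKM, above 1.77 to 1.83 RPKM in the other knockout libraries. In knockout replicate 4 Nt5c stood at 2.78 RPKM, above 1.48 to 1.67 RPKM in the others and above control replicate 14 at 2.60 RPKM. In knockout replicate 5 Pm20d1 stood at 0.603 RPKM, above 0.398 to 0.423 RPKM in the others. In control replicate 13 Gmpr made up 84.5% of GMP reductase transcripts, below 87.3% to 87.8% in the other control libraries and above every knockout library.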

How the results depend on the processing

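Under the 14 alternatives the log2 fold change of Gmpr lay from -2.26 to -1.86, that of Impdh1 from -1.11 to -0.77 and that of Ampd3 from 0.65 to 0.94, a description only, since the members were chosen on this contrast. Over all genes, the main fit called 1703 higher and 1391 lower. The library total alone gave 2796 higher and 628 lower, and the sum over listed genes 1087 higher and 2651 lower, shifting the median of all genes by 0.13 and -0.12 (log2). Of the purine genes outside the members, 12 fell in the main fit and 5 with the library total alone. Leaving out 1 library gave 6 to 10 (6 without control replicate 14, 7 without knockout replicate 20), while 9 rose in the main fit and 8 to 9 in these. Over all genes such fits called 1477 to 1571 higher and 1134 to 1248 lower.

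Signs turned for members near no change. With the library total alone Guk1 had a log2 fold change of 0.0169 and Adsl of 0.0881, and with the sum over listed genes Hprt was at -0.12 and Aprt at -0.11. Aprt was at -0.00505 with voom. Leaving out 1 library gave Hprt -0.0851 to 0.0977 and Aprt -0.102 to 0.147. Of the called purine genes outside the members, none turned, but 7 lost their call with the library total alone: Prpsap2, Pfas, Paics, Gmps, Nt5m, Ak3 and Nme2. Atic lost it with the sum over listed genes and Ak3 with no filter. Gmpr2 passed with the sum over listed genes (-0.35), as did Guk1 (-0.30) and Adsl (-0.18). The causes were not tested. Without any 1 library the difference, knockout minus control, was -25.7 to -21.6 percentage points for the Gmpr share, -7.69 to -5.37 for the Impdh1 share and 9.67 to 13.9 for the Ampd3 share, and -0.124 to -0.108 for the reductase to dehydrogenase ratio, which was added after the data were seen. No paired analysis was possible because the genotypes share no replicate number.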

Other observations

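Nt5e, the cell-surface nucleotidase CD73 that makes adenosine from AMP, had a mean under 1 RPKM and was not tested. It averaged 0.602 ± 0.0871 RPKM in knockout and 0.197 ± 0.0518 RPKM in control libraries (SD, n = 4 each), and the genotypes did not overlap. Adal, an adenosine deaminase-like enzyme, was not tested either, and stood at 0.804 ± 0.0942 RPKM in knockout and 0.639 ± 0.0765 RPKM in control libraries (SD, n = 4 each), again without overlap. Both are named after their values were seen.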
